A study of Mus musculus with 4 samples.

Results

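The 33 genes described here encode the enzymes of glycolysis, the transporters and regulators that serve it, and genes known to be induced when oxygen is low. They were taken as a list of gene symbols, chosen with earlier results of these data known. Each was matched to the probe set of that symbol with the highest mean signal over the arrays. All 33 had a probe set, out of 27631 genes tested. They comprise 17 glycolytic enzymes, 6 transporters and regulators of glycolysis, the hypoxia-inducible factor subunit Hif1a and 9 other targets of that factor.

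The samples came from J774M, a mouse myeloid cell line that the submitters label as myeloid-derived suppressor cells. Cells were grown in RPMI medium with 10% serum. The 2 control samples were compared with 2 samples given 10 uM NC06, an inhibitor of neutral ceramidase, for 24 h, and RNA from each was measured on 1 whole-transcript array. The sources used here do not give what the control cells received in place of NC06. The labels do not say that replicates came from separate cultures, so each p-value reflects how far these 4 arrays spread, which may be a technical spread alone. A single cell line grown in culture lacks the tissue, the other cells and the low oxygen of a tumour.

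Glycolysis splits glucose into pyruvate in the cytosol, and lactate dehydrogenase turns pyruvate into lactate when it is not sent to the mitochondria. Hexokinase and phosphofructokinase catalyse its early, largely irreversible steps, each through several isoenzymes. In oxygen, prolyl hydroxylases mark HIF-1 alpha for destruction. When oxygen falls, or when inflammatory signals stabilise the protein, HIF-1 binds the core sequences ACGTG and GCGTG and raises transcription of most glycolytic genes together with others. Activated macrophages and myeloid suppressor cells are known for a high glycolytic rate.

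Of the 33 genes, 32 had a promoter window in the RefSeq table (build GRCm38.p6), which runs from 250 bases before to 50 bases after the annotated start. The 4 windows below belong to the genes with the smallest p-values among those whose window holds ACGTG. They show where the letters of this HIF core lie in genes that differed in opposite directions. GCGTG, the other core, is not marked. Each is printed 5′ to 3′ on the strand of the gene, and capitals mark ACGTG or its complement CACGT. Hk3 lies at chr13:55021336-55021635 on the minus strand and Hk2 at chr6:82774405-82774704 on the minus strand. Bnip3 lies at chr7:138909457-138909756 on the minus strand, and the Pfkm window, 1 of 4 of that gene, at chr15:98092339-98092638 on the plus strand.
Hk3: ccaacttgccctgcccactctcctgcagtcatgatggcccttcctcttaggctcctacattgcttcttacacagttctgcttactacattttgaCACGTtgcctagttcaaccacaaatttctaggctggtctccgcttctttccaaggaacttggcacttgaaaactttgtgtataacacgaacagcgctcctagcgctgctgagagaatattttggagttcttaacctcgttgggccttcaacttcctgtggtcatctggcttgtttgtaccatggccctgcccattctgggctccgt
Hk2: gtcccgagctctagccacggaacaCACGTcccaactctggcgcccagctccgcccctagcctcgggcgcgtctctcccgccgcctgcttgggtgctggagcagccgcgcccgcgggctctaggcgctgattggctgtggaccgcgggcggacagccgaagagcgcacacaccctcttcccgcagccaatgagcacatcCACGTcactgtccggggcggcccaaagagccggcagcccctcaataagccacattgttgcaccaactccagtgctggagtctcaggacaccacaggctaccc
Pfkm: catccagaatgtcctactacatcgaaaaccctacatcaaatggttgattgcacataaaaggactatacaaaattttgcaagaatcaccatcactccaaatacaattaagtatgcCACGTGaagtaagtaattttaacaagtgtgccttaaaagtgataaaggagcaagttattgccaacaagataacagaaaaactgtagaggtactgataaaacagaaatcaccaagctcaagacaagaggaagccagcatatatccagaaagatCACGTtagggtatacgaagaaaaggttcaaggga
Bnip3: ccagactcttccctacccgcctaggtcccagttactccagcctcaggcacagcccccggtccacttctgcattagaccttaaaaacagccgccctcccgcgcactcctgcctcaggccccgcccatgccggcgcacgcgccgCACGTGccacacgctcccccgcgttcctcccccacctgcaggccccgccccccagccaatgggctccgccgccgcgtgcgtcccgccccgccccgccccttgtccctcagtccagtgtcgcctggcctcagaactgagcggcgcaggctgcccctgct

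The Hk3 window holds a single match, whose first base lies at position -156 from the start. Hk2 has matches at -226 and -52. In Pfkm and Bnip3 the capitals include CACGTG, the E-box, which reads as ACGTG on both strands and so counts as 2 matches. In the Pfkm window printed it begins at -136, with a further match at 17, and in Bnip3 it begins at -108. Another Pfkm window, at chr15:98108221-98108520, holds 1 match, at -244, and the rest of that gene's windows hold none. Which Pfkm start these cells use was not tested. The windows of Adm, Pfkp, Pfkl, Pfkfb4 and Tpi1 hold no ACGTG on either strand. GCGTG, the other HIF core, is present 2 times in Adm, 4 times in Pfkp and 1 time each in Pfkl and Pfkfb4. Of the printed windows, that of Bnip3 also holds GCGTG 3 times on either strand, and those of Hk3, Hk2 and Pfkm hold none.

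ACGTG was present on either strand in a window of 23 of the 32 genes (71.9%), against 21.8% of the 27025 genes with a window and 23.5% of the 18975 tested genes with one. GCGTG was present in 62.5% of the 32, against 35.2% of all genes with a window, and the E-box CACGTG in 18.8%, against 8.09%. The windows of the 32 genes are also rich in CG, with a median of 22.5 CG pairs in a gene's richest window against 14 for tested genes, and all these motifs contain CG. By role, ACGTG was present in 11 of 17 enzymes, 4 of 6 transporters and regulators, and 7 of 8 other HIF targets, and also in Hif1a. The median difference between NC06 and control was -0.019 on the log2 scale for the 23 genes with ACGTG and -0.21 for the 9 without it. Of those 9, Adm, Pfkp, Pfkl, Pfkfb4, Pdk1 and Eno1 hold GCGTG, so most of them are not without a HIF core. A match of letters is a description of the window and shows no binding.

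The 4 arrays had median signals between 4.67 and 4.75 on the log2 scale, and their values correlated across probe sets at 0.991 to 0.9915 within groups and 0.9886 to 0.9892 between groups. All 14 macrophage markers on the list checked had a signal above the median of tested genes. The summed linear signal of these markers was 20379 to 20848 in control and 26434 to 26830 under NC06, and 10 of the 14 rose by the limma fit with a trend and robust prior described below, against 2.39% of all genes. The summed signal of 14 neutrophil markers was 1062 to 1189 in control and 2448 to 2665 under NC06, and 5 of the 14 rose by the same fit, namely Mmp8 by 2.89, S100a8 by 1.48, Ly6g by 1.38, Lcn2 by 1.25 and Cxcr2 by 1.01 on the log2 scale. By sign, 9 of the 14 were higher and 5 lower. The lower ones were Ngp by 0.28, S100a9 by 0.22, Prtn3 by 0.10, Csf3r by 0.09 and Mpo by 0.036, with 0 called by that fit. Of the 14, 7 had a signal above the median, Prtn3 among them, and Mpo and Elane did not. The summed signal of 6 B cell markers was 3931 to 4020 in control and 3029 to 3101 under NC06. Nearly all of it came from Ighm, the only 1 of the 6 with a signal above the median. Ighm measured 11.90 and 11.94 in control and 11.56 and 11.52 under NC06. It fell by the same fit, by 0.39, and no other B cell marker was called. For 8 erythroid and megakaryocyte markers the sum was 1519 to 1580 in control and 2375 to 2544 under NC06. Most of it came from Pf4, which rose by 0.73 by that fit, from a mean of 10.38 to 11.11. The next brightest of the 8, Gp9, had means of 6.18 and 6.31, and no marker but Pf4 was called. The sum of 8 T and NK cell markers was 166 to 173 in control and 162 to 175 under NC06. That of 9 fibroblast, endothelial and epithelial markers was 332 to 341 and 351 to 364, with 0 called in either list. The part of these marker shifts in the values that follow was not tested. In bulk RNA, a smaller share of cells of one kind and less RNA per cell cannot be told apart.

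Among the glycolytic enzymes, the largest differences between NC06 and control lay at the first steps of the pathway. Hk2, Pfkl, Pfkp and Pfkm were lower by 0.37 to 0.52 on the log2 scale, Hk3 was higher by 0.51, and the enzymes from Gapdh to Ldha lay within 0.12 of control. Among the other HIF targets, Adm and Ankrd37 were lower by 0.52 and 0.55, Bnip3 by 0.25, and Ndrg1 was higher by 0.31, while Hif1a itself differed by 0.00051. None of these differences had an adjusted p under 0.05 in the limma fit over all genes, which called 0 of 27631 genes (0%). Values are differences of group means on the log2 scale, NC06 minus control, with moderated standard errors and 2 arrays per group.

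At an unadjusted p under 0.05 by limma, 12 of the 33 genes (36.4%) differed, against 15.4% of all genes tested. Of these, 3 were higher under NC06, against 7.8% of all genes, and 9 were lower, against 7.62%. The 3 higher genes were Hk3, Aldoa and Ndrg1. The 9 lower genes were Hk2, Pfkl, Pfkm, Pfkp, Tpi1, Pfkfb4, Adm, Bnip3 and Ankrd37. Because 30 of the 33 genes had a signal above the median of tested genes, the share was also set beside genes of that range. There 11 of the 30 (36.7%) had such a p against 20.3% of 13816 genes. That range starts at 4.93, while the 33 genes averaged 8.35 to 8.47 per array, and signal within the range was not matched. With an array left out the count of lower genes was 4 without NC06 replicate 1, 5 without NC06 replicate 2, 4 without control replicate 1 and 6 without control replicate 2. The count of higher genes was 1 without NC06 replicate 1, 1 without control replicate 1 and 2 without either of the other arrays. Over all genes the count at that p also dropped, from 4261 with all arrays to 2792 and 3152 without NC06 replicate 1 and 2, and to 2657 and 2921 without control replicate 1 and 2.

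The groups did not overlap, with the NC06 pair of arrays entirely above or below the control pair, for 20 of the 33 genes (60.6%), against 47.7% of all genes tested. In 5 of these both NC06 arrays were above, against 23.2% of all genes, and in 15 both were below, against 24.5%. The median difference of the 33 genes was -0.023, against 0.0014 over all genes, and their median absolute difference was 0.12, against 0.13. With 2 arrays against 2, an exact permutation test of a single gene cannot go below a two-sided p of 0.333. These counts describe the list and are given with no test over it.

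**Figure D1:**
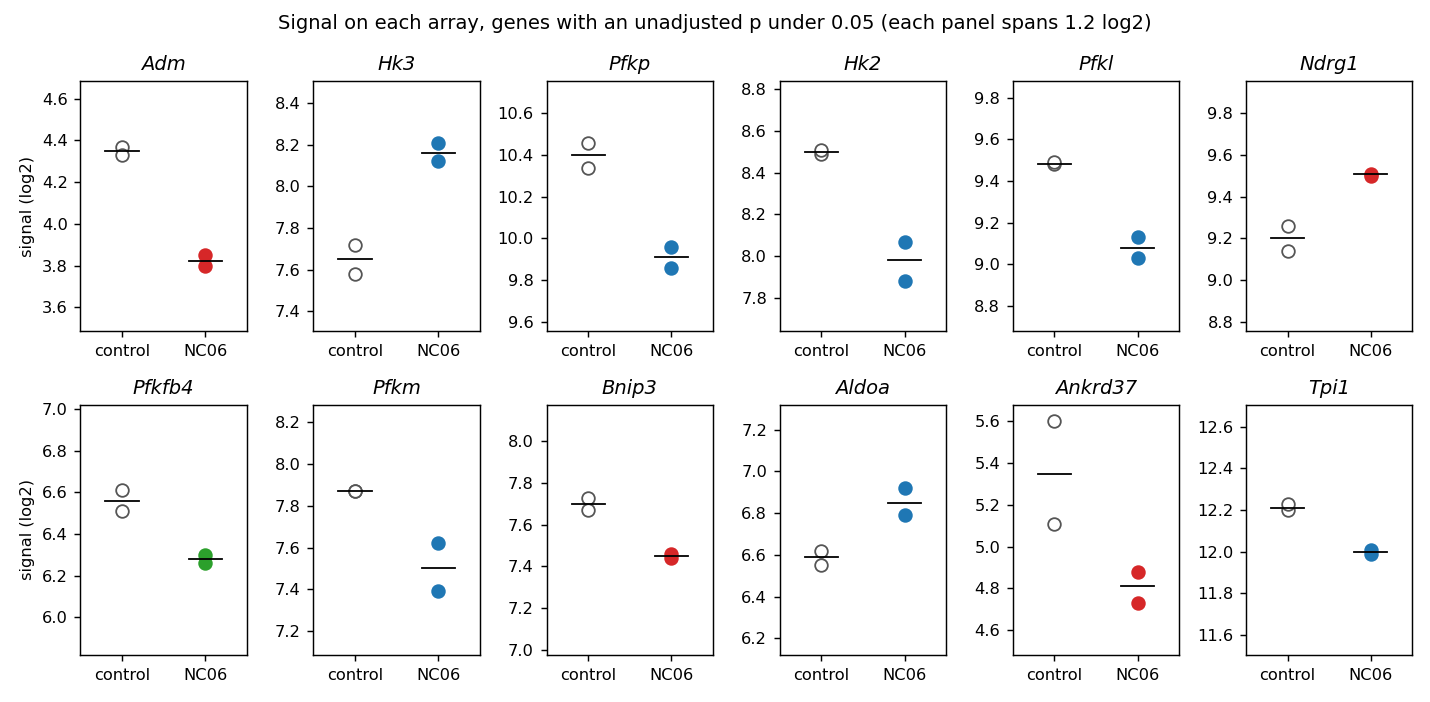
Signal on the log2 scale on each array for the 12 genes with an unadjusted p under 0.05, open circles for control, filled circles for NC06 and a bar for each group mean, with the same span of signal in every panel. In each panel both NC06 arrays lie on one side of both control arrays, above for Hk3, Aldoa and Ndrg1 and below for the other 9.

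The number of calls depended on how the fit treated the variance. With a prior that follows signal and limits outlying variances (limma's trend and robust options), 6 of the 33 genes had an adjusted p under 0.05. Hk3 and Ndrg1 rose, against 2.39% of all genes, and Hk2, Pfkl, Pfkp and Tpi1 fell, against 3.04%. These shares include dim genes and were not matched for signal, while 30 of the 33 genes lay above the median. With the genes below the median signal left out, the plain fit called Hk2, Hk3, Pfkl and Pfkp, against 6.63% of the 13816 genes then tested. Under the trend and robust prior with an array left out as well, 5 genes were called without NC06 replicate 1, 4 without NC06 replicate 2, 1 (Pfkp) without control replicate 1 and 0 without control replicate 2. Over all genes these fits called 739, 828, 260 and 274 genes in the same order, against 1500 with all arrays.

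**Figure D2:**
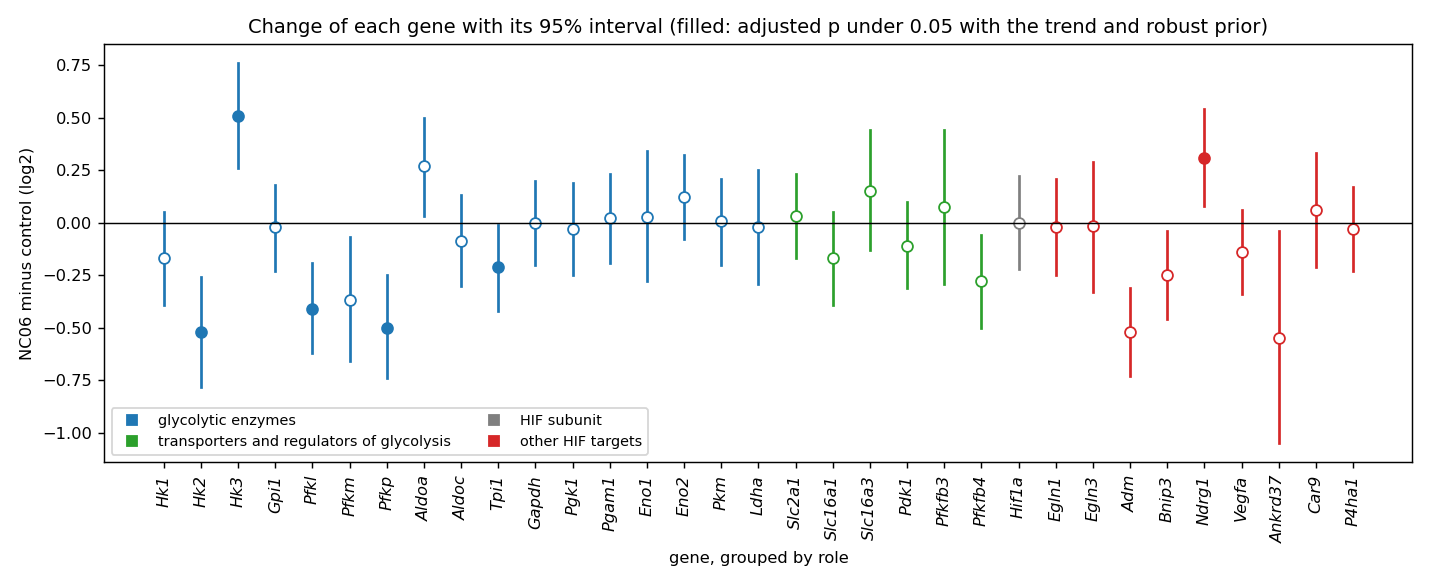
Difference of NC06 minus control on the log2 scale for each of the 33 genes, grouped by role, with 95% intervals of the moderated fit as lines and filled points where the adjusted p was under 0.05 with the trend and robust prior. The 6 filled points are Hk2, Hk3, Pfkl, Pfkp, Tpi1 and Ndrg1, and the genes from Gapdh to Ldha lie near 0.

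Hexokinases trap glucose in the cell as glucose 6-phosphate. Hk2, the inducible isoenzyme, had signals of 8.49 and 8.51 in control and 7.88 and 8.07 under NC06. Both NC06 arrays were below both controls. The difference was -0.52 ± 0.098 (SE), a ratio of 0.697, with a limma adjusted p of 0.197, or 0.0121 with the trend and robust prior. Hk3, an isoenzyme characteristic of myeloid cells, went the other way, at 7.58 and 7.72 in control and 8.12 and 8.21 under NC06. Its difference was 0.51 ± 0.094 (SE), a ratio of 1.43, with a limma adjusted p of 0.195, or 0.013 with the trend and robust prior. Hk1, the isoenzyme found in most tissues, measured 7.64 and 7.72 in control and 7.48 and 7.54 under NC06. Its groups did not overlap either, but the interval of its difference of -0.17, from -0.39 to 0.05, included 0.

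Gpi1, which converts glucose 6-phosphate to fructose 6-phosphate, measured 12.67 and 12.68 in control and 12.63 and 12.67 under NC06, a difference of -0.023 with an interval from -0.23 to 0.18. The next enzyme, phosphofructokinase, commits the sugar to glycolysis and is built from liver, muscle and platelet type subunits. Pfkp, the platelet type, measured 10.34 and 10.46 in control and 9.86 and 9.96 under NC06. Its difference was -0.50 ± 0.091 (SE), a ratio of 0.709, with a limma adjusted p of 0.195, or 0.00489 with the trend and robust prior.

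Pfkl, the liver type, measured 9.48 and 9.49 in control and 9.03 and 9.13 under NC06. Its difference was -0.41 ± 0.081 (SE), a ratio of 0.755, with a limma adjusted p of 0.205, or 0.0088 with the trend and robust prior. Pfkm, the muscle type, measured 7.87 on both control arrays and 7.39 and 7.62 under NC06, with the NC06 arrays well apart from each other. Its difference was -0.37 ± 0.11 (SE), with a limma adjusted p of 0.268, or 0.0666 with the trend and robust prior. All 3 subunit genes thus had both NC06 arrays below both controls, and 2 of the 3 were called with that prior.

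Aldolase cleaves fructose 1,6-bisphosphate into triose phosphates. The Aldoa probe set measured 6.62 and 6.55 in control and 6.92 and 6.79 under NC06, a difference of 0.27 ± 0.089 (SE) with a limma adjusted p of 0.299. The platform assigns this probe set to Aldoa and Aldoart1 together, and a second probe set named Aldoa gave -0.17, so the direction of Aldoa rests on the probe set. Aldoc, a related isoenzyme, measured 10.11 and 10.04 in control and 10.02 and 9.95 under NC06, with an interval from -0.30 to 0.13. Tpi1, which interconverts the triose phosphates, measured 12.20 and 12.23 in control and 12.01 and 11.99 under NC06. Its arrays were close within each group, and the difference of -0.21 ± 0.075 (SE), a ratio of 0.862, had a limma adjusted p of 0.31, or 0.0137 with the trend and robust prior.

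From glyceraldehyde 3-phosphate to lactate, differences were small. Gapdh, which oxidises glyceraldehyde 3-phosphate, measured 13.56 and 13.54 in control and 13.55 on both NC06 arrays. These values lie at the top of the signal range, where the highest value of any probe set was 13.56 on every array. The platform text gives this probe set a pseudogene as well, and the 3 probe sets assigned to Gapdh alone gave differences of -0.0047, 0.035 and 0.08. The last of these lies well below the top of the range, at 9.38 and 9.40 in control and 9.57 and 9.38 under NC06, with overlapping groups. Near the top of the range a difference may not be measurable.

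Pgk1, which makes the first ATP of the pathway, measured 12.26 and 12.36 in control and 12.28 and 12.29 under NC06, with an interval from -0.25 to 0.19. Pgam1, the phosphoglycerate mutase, measured 11.01 and 11.06 in control and 11.09 and 11.02 under NC06, with an interval from -0.19 to 0.23. The NC06 arrays lay between the controls in Pgk1, and 1 of them did in Pgam1. Pkm, the pyruvate kinase of these cells, measured 12.62 and 12.64 in control and 12.62 and 12.67 under NC06, with an interval from -0.20 to 0.21. Ldha, which makes lactate, measured 7.23 and 7.42 in control and 7.33 and 7.28 under NC06, with an interval from -0.29 to 0.25. The groups overlapped in all 4 genes.

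Of the enolases, Eno1 measured 5.62 and 5.68 in control and 5.55 and 5.81 under NC06, where the NC06 arrays spanned the controls. Its interval, from -0.28 to 0.34, was the widest among the later enzymes. Eno2, the enolase typical of neurons, measured 6.63 on both control arrays and 6.74 and 6.76 under NC06. It was the single later enzyme whose groups did not overlap, with a difference of 0.12 and an interval from -0.08 to 0.32.

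Counted by step, a grouping chosen after the values were seen, 7 of the 10 enzyme genes from hexokinase to triose phosphate isomerase had an unadjusted p under 0.05 by limma, 2 higher and 5 lower, and their median difference was -0.19. The share of all genes with such a p was 15.4%. None of the 7 genes from Gapdh to Ldha had such a p, and their median difference was 0.0091. Of these 7, Gapdh lies near the top of the signal range, where a difference may not be measurable. Eno1 is read from a probe set for which the platform annotation lists no gene, with means of 5.65 in control and 5.68 under NC06. The groups did not overlap in 9 of the 10 earlier genes and in 1 of the 7 later genes, against 47.7% of all genes. The difference between the earlier and the later steps was not tested.

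**Figure D3:**
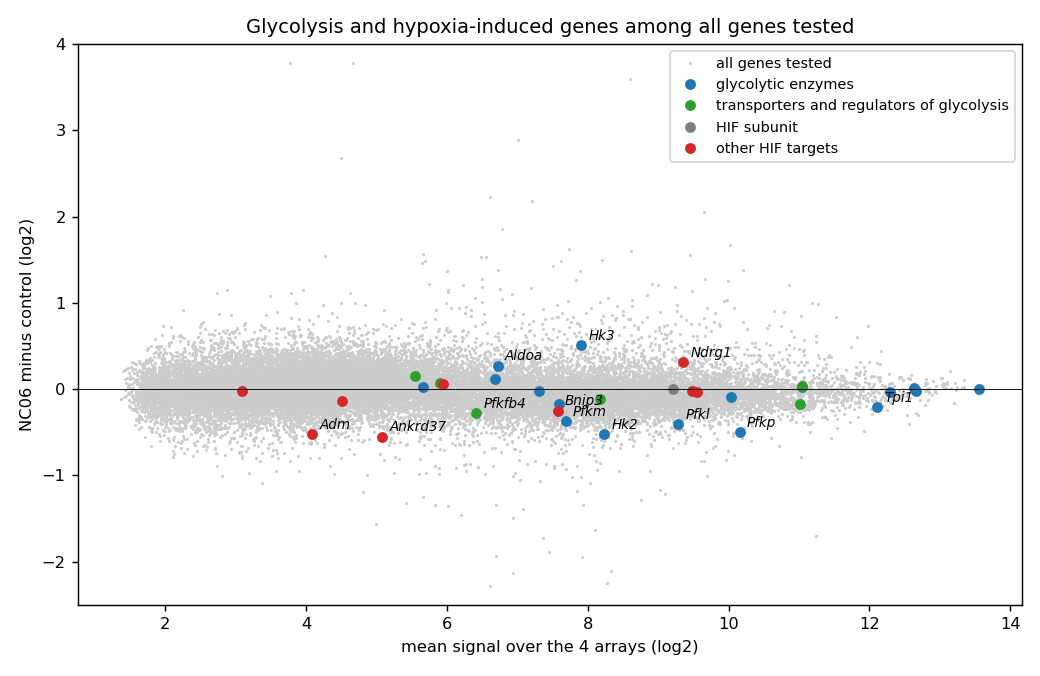
Difference of NC06 minus control against mean signal over the arrays, both on the log2 scale, for all 27631 genes tested in grey and the 33 genes coloured by role, with the 12 of unadjusted p under 0.05 named. The 33 genes lie between -0.55 and 0.51, within a range of -2.28 to 3.78 over all genes.

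Glucose enters and lactate leaves through dedicated transporters. Slc2a1, the glucose transporter GLUT1, measured 11.02 and 11.03 in control and 11.06 on both NC06 arrays. The groups did not overlap, but the difference was 0.033, with an interval from -0.17 to 0.23, and a second probe set gave -0.10. Slc16a1, the monocarboxylate transporter MCT1, measured 11.11 and 11.10 in control and 10.89 and 10.98 under NC06, lower on both NC06 arrays, with an interval from -0.39 to 0.05. Slc16a3, the lactate exporter MCT4, measured 5.38 and 5.56 in control and 5.56 and 5.69 under NC06, with an interval from -0.13 to 0.44.

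Pdk1, a kinase that inhibits pyruvate dehydrogenase, measured 8.25 and 8.20 in control and 8.11 and 8.13 under NC06, with an interval from -0.31 to 0.10. Pfkfb3 and Pfkfb4 set the level of fructose 2,6-bisphosphate, the main activator of phosphofructokinase. Pfkfb4 measured 6.61 and 6.51 in control and 6.30 and 6.26 under NC06, a difference of -0.28 ± 0.083 (SE), with a limma adjusted p of 0.265, or 0.138 with the trend and robust prior. Pfkfb3 measured 5.7 and 6.0 in control and 5.8 and 6.0 under NC06, with overlapping groups and an interval from -0.29 to 0.44. Pfkfb4 was the single gene of these 6 with an unadjusted p under 0.05, and the median difference of the 6 was -0.037.

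Hif1a, the oxygen-regulated subunit of HIF-1, measured 9.17 and 9.27 in control and 9.23 and 9.20 under NC06. The NC06 arrays lay between the controls, and the interval of the difference ran from -0.22 to 0.22. A second probe set gave 0.10. Another, which the platform assigns to Hif1a and S100a11-ps together and which was named S100a11-ps here, gave 0.46. It measured 4.82 and 4.72 in control and 5.17 and 5.28 under NC06. HIF-1 alpha is governed mainly through the stability of its protein, which an array does not measure. Egln1, the main prolyl hydroxylase acting on it and itself a HIF target, measured 9.46 and 9.53 in control and 9.53 and 9.42 under NC06, with an interval from -0.25 to 0.21. Egln3, a hydroxylase strongly induced by hypoxia in many cells, measured 3.0 and 3.2 in control and 3.2 and 3.0 under NC06, in the lowest quartile of signal, so a difference may not be detectable there.

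Adm, which encodes the vasodilator peptide adrenomedullin, had the smallest p of the 33 genes. It measured 4.37 and 4.33 in control and 3.85 and 3.80 under NC06, with both groups tight and apart. The difference was -0.52 ± 0.078 (SE), a ratio of 0.695, with a limma adjusted p of 0.152, or 0.0765 with the trend and robust prior. Its signal was below the median of tested genes.

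Bnip3, a mitochondrial protein that promotes mitophagy, measured 7.73 and 7.67 in control and 7.44 and 7.46 under NC06. Its difference of -0.25 ± 0.077 (SE) had a limma adjusted p of 0.28, or 0.0953 with the trend and robust prior. Ankrd37, an ankyrin repeat protein, measured 5.60 and 5.11 in control and 4.73 and 4.88 under NC06. The controls were farther apart than those of any other of the 33 genes, and the difference of -0.55 ± 0.19 (SE), with a limma adjusted p of 0.305, was -0.30 without control replicate 1 and -0.79 without control replicate 2. The platform assigns this probe set to Lrp2bp and Ankrd37 together.

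Ndrg1, a stress-responsive protein induced by hypoxia and by iron loss, was the single other HIF target with a higher signal at that p. It measured 9.14 and 9.26 in control and 9.51 and 9.50 under NC06. The difference was 0.31 ± 0.084 (SE), a ratio of 1.24, with a limma adjusted p of 0.252, or 0.0278 with the trend and robust prior. A second, dim probe set of Ndrg1 gave 0.055.

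Vegfa, the vascular growth factor, measured 4.57 and 4.60 in control and 4.44 and 4.45 under NC06. Both NC06 arrays were lower, with an interval from -0.34 to 0.06, at a signal below the median. P4ha1, a collagen prolyl hydroxylase subunit, measured 9.59 and 9.56 in control and 9.55 and 9.53 under NC06, with an interval from -0.23 to 0.17. Car9, the membrane carbonic anhydrase often used as a marker of hypoxia, measured 6.02 and 5.82 in control and 5.98 on both NC06 arrays. Its interval ran from -0.21 to 0.33, and a second probe set gave -0.41, so the direction of Car9 rests on the probe set.

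Set side by side, the glycolytic enzymes and the other HIF targets both held genes on either side of 0. The median difference of the 17 enzymes was -0.023, within a range from -0.52 to 0.51, and that of the 9 other HIF targets was -0.032, within a range from -0.55 to 0.31. An unadjusted p under 0.05 by limma was reached by 7 of the 17 enzymes (41.2%), 2 higher and 5 lower, and by 4 of the 9 other targets (44.4%), 1 higher and 3 lower, against 15.4% of all genes. With the trend and robust prior 5 enzymes and 1 other target were called, against 1500 of 27631 genes. All 17 enzymes had a signal above the median of tested genes, but 3 of the 9 other targets did not. The medians differed by -0.0083, a value that turned to 0.025 without NC06 replicate 2 and to 0.032 with platform names alone. Counting the transporters and regulators with the other targets left the latter median at -0.032.

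**Figure D4:**
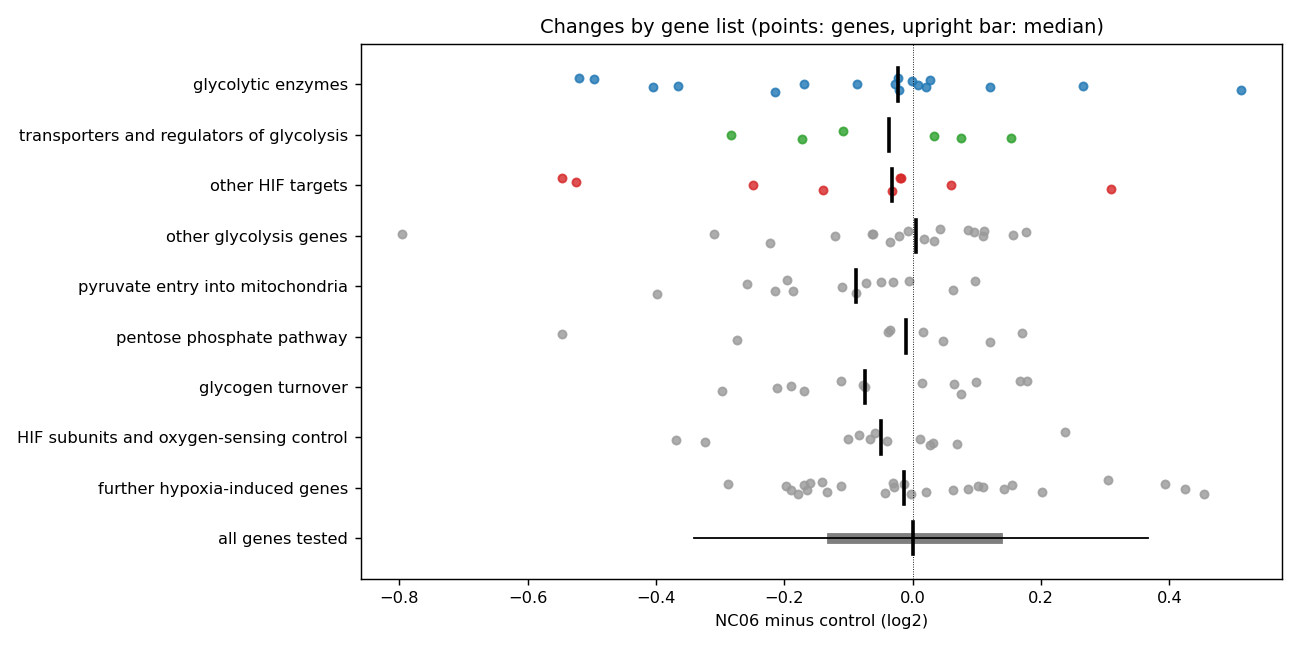
Differences of NC06 minus control on the log2 scale for the genes of each list (points) with the median of the list (upright bar), and for all genes tested the 5th to 95th percentile (thin line) and the quartiles (thick line). The enzymes and the other HIF targets both spread on either side of 0, with medians of -0.023 and -0.032.

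Genes of neighbouring pathways were checked in lists chosen by function, with the 3 genes of smallest p in each given here. Of 18 other glycolysis genes, 2 were lower and 0 higher at an unadjusted p under 0.05 by limma (11.1% against 15.4% of all genes), and the median difference was 0.005. Slc2a3, the glucose transporter GLUT3, measured 5.14 and 4.66 in control and 4.07 and 4.14 under NC06. Its difference of -0.80 ± 0.18 (SE) had a limma adjusted p of 0.225, or 0.0496 with the trend and robust prior, and the controls were well apart from each other. Eno3, the muscle enolase, was lower by 0.31, and Slc2a6, a lysosomal hexose transporter, was higher by 0.18 without reaching such a p.

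Of 8 pentose phosphate genes, 2 were lower and 0 higher at that p (25% against 15.4% of all genes), with a median of -0.01. Rpia, the ribose 5-phosphate isomerase, measured 8.07 and 8.12 in control and 7.51 and 7.59 under NC06. It fell by 0.55 on the log2 scale by the trend and robust fit in limma, with an adjusted p of 0.00624. With the plain prior the SE of the difference was 0.081 and the limma adjusted p was 0.152. Pgls, the lactonase of the pathway, was lower by 0.27, and G6pdx, its first enzyme, was higher by 0.17 without reaching that p. Of 13 genes of pyruvate entry into mitochondria, 1 was lower at that p (7.69%). The median of that list was -0.089, with 11 of the 13 below 0, against 13706 of the 27631 genes tested. Pdp2, a phosphatase that activates pyruvate dehydrogenase, was lower by 0.40, Pdhx by 0.19 and Pdk3 by 0.20.

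Of 13 genes of glycogen turnover tested, 1 was lower at that p (7.69% against 15.4% of all genes), the phosphorylase kinase subunit Phka2, by 0.30, and the list's median was -0.074. Gyg and Pygb were lower by 0.21 and 0.19 without reaching that p. Pgm1 was not tested. Of 12 genes of HIF subunits and oxygen sensing, 2 were lower and 0 higher (16.7%), with a median of -0.049. Cited2, which competes with HIF-1 for its coactivators, measured 11.45 and 11.51 in control and 11.20 and 11.12 under NC06. It fell by 0.32 on the log2 scale by the trend and robust fit in limma, with an adjusted p of 0.0084. Hif1an, the asparagine hydroxylase acting on HIF-1 alpha, was lower by 0.37, and Epas1, which encodes HIF-2 alpha, was higher by 0.24 without reaching that p.

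Of 27 further hypoxia-induced genes, 4 were higher and 0 lower at an unadjusted p under 0.05, with a median of -0.014. This share, 14.8%, is near the 15.4% of all genes. Cxcr4, a chemokine receptor, measured 9.35 and 9.32 in control and 9.82 and 9.70 under NC06, and rose by 0.42 on the log2 scale by the trend and robust fit in limma, with an adjusted p of 0.00839. Fam162a, a mitochondrial protein, measured 9.69 and 9.54 in control and 10.06 and 9.95 under NC06, and rose by 0.39 by the same fit, with an adjusted p of 0.0209. Ak4, a mitochondrial adenylate kinase, was higher by 0.30. The fourth gene was Ddit4, an inhibitor of mTORC1, higher by 0.45 and named after its value was seen.

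The authors' deposited table covers 31873 of the 41345 probe sets. It holds NC06-to-control ratios of array pairs with the same number, a ratio of group means and, for 31867 probe sets, a p-value. It gives no values for the Pgam1 probe set used here. In the authors' deposited table Hk2 had ratios of 0.659 and 0.738, Pfkl 0.732 and 0.779 and Pfkp 0.713 and 0.705. Hk3 had ratios of 1.45 and 1.4 in the authors' deposited table, and Ankrd37 had 0.549 and 0.853. The smallest p among these genes in the authors' deposited table was that of Eno2, at 0.00261 for a ratio of means of 1.09. Slc2a1 had a p of 0.0107 in the authors' deposited table for a ratio of 1.02, and Vegfa 0.0108 for 0.908. These 3 genes had close replicates and did not reach an unadjusted p under 0.05 in limma, which pools the variance over genes.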

How the data were processed

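RNA from 2 control and 2 NC06-treated J774M samples was measured on whole-transcript arrays, and groups and replicate numbers came from the sample titles. The log2 signals were used as deposited. Per the submitters' processing notes the authors used Partek. The sources used here give no version, background correction, normalization or genome build. The authors' deposited table also holds the ratio of NC06 to control per array pair and per group means. On the log2 scale these matched the deposited values within 8.8e-05, which settles scale and direction. The p-value of each probe set in that table is the authors' own.

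Of 41345 probe sets, 29595 were named from the platform annotation or, where it listed several genes or none, from the authors' deposited table (1679 and 4395 probe sets), and gave 27631 genes. Gpi1, Aldoa, Gapdh, Eno1 and Ankrd37 were named in the latter way. Each gene was represented by its probe set of highest mean. Signals were fitted without further normalization or filter with limma 3.58.1 (lmFit, eBayes, two-sided) in R 4.3.3, with 2 residual and 2.38 prior degrees of freedom and Benjamini-Hochberg adjustment over all genes at 0.05. The fit was tested on simulated data. Intervals are 95% intervals, and 2 arrays per group limit the precision. Promoters came from RefSeq (GRCm38.p6). Tables used Python 3.11.15, pandas 2.3.3 and numpy 2.4.6, and figures matplotlib 3.10.9. All 33 genes were named with their values, and promoters were printed for the 4 with the smallest p that hold ACGTG. The genes and lists were chosen with earlier results of these data known, so no test over a list was made. The alternatives are 14 settings and 4 added after seeing the data.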

Additional observations from a re-analysis of the deposited data

How the results depend on the processing

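With 2 arrays per group and signals whose detection limit is unknown, differences of dim genes such as Egln3 are the least certain. Over all genes, 0 were called with the values as deposited, 2 with the mean of a gene's probe sets, 2 with the dimmest probe set, 4 after quantile normalization, 20 after median centring, 63 with platform names alone, 139 without the lowest signal quartile, 916 without genes below the median signal and 1500 with the trend and robust prior. Of the 33 genes, 6 were called with the trend and robust prior, 4 without genes below the median signal, and 0 under the other planned settings, an adjusted p under 0.10 included. The trend and robust prior with an array left out, added after seeing the data, called 0 to 5. The 3 higher genes at an unadjusted p under 0.05 became 1 with the mean of probe sets or the dimmest probe set, and 1 to 2 with an array left out. The 9 lower genes became 4 to 6 with an array left out. The cause of these shifts was not tested.

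The enzymes' median of -0.023 moved to -0.08 after median centring, to -0.058 with platform names alone and to between -0.053 and -0.0092 with an array left out. The median of the other HIF targets, -0.032, moved to -0.14 with either other probe set rule, to -0.089 after median centring, to -0.086 without the lowest quartile and to between -0.12 and -0.019 with an array left out. The difference of these medians, -0.0083, became -0.12 with the mean of probe sets, -0.11 with the dimmest probe set, -0.062 without the lowest quartile, 0.032 with platform names alone and -0.078 to 0.025 with an array left out. Median centring moved the median of all genes to -0.056.

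Of single-gene values under the alternatives, 407 kept direction and side of the threshold, 10 passed it, and 36 changed sign. Of the 12 genes with an unadjusted p under 0.05, Aldoa alone changed sign. The mean of probe sets gave Gapdh 0.016, Slc2a1 -0.035 and Car9 -0.17. The dimmest probe set gave Aldoa -0.17, Gapdh 0.0018, Slc2a1 -0.10, Pdk1 0.019 and Car9 -0.41. Median centring gave Pgam1 -0.036, Eno1 -0.03, Pkm -0.048, Slc2a1 -0.024 and Hif1a -0.056. Quantile normalization gave Gpi1 0.03, Eno1 -0.023, Ldha 0.029 and Egln1 0.009. With an array left out, values ran from -0.0092 to 0.0078 for Gapdh, -0.079 to 0.022 for Pgk1, -0.014 to 0.055 for Pgam1, -0.10 to 0.15 for Eno1, -0.013 to 0.031 for Pkm, -0.12 to 0.074 for Ldha, -0.061 to 0.21 for Pfkfb3, -0.05 to 0.051 for Hif1a, -0.074 to 0.036 for Egln1, -0.12 to 0.083 for Egln3 and -0.037 to 0.16 for Car9.

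Same-numbered arrays did not deviate together (r = 0.0052 across 41345 probe sets), so the numbers were not taken to pair the samples. With the replicate block, 0 genes had an adjusted p under 0.05 by limma, 3727 genes had an unadjusted p under 0.05 against 4261, and 3 higher and 6 lower of the 33 genes did.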
